A study of Mus musculus with 10 samples.

Results

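The Fc receptors and their signalling partners make up a group of 9 genes: the immunoglobulin G receptors Fcgr1, Fcgr2b and Fcgr3, the adaptors Fcer1g and Tyrobp, the tyrosine kinases Lyn, Fgr and Syk, and the phospholipase Plcg2. Their probes were found by gene symbol in the platform annotation of a series of 10 two-colour arrays. Of the 9 genes, 7 had an annotated probe, 1 probe each, among 13872 probes. Syk gave no value on any array and Lyn and Plcg2 had no annotated probe, so 6 genes could be tested, of 4299 genes tested in all. Each array set aortic arch RNA of a double-null mouse (ApoE-/-,MyD88-/-) against that of an apoE-null mouse (ApoE-/-), so that every animal lacked apolipoprotein E and was prone to atherosclerosis. There were 5 mouse pairs, each hybridised in both dye orientations. Both mice were female in pair 1 and male in pairs 2, 3 and 4, while in pair 5 the double-null mouse was male and the apoE-null mouse female. The labels of 8 arrays state 8 weeks of high fat diet; those of the channel 1 arrays of pairs 2 and 3 do not, although their partner arrays hold the same mice. The arrays held 4581 to 7057 values each, and the rest were blank. On the 2 arrays of pair 1 the mouse numbers are swapped between genotypes, and as Myd88 was below 0 on both by the genotype labels, those labels were used. Strain, age and the way the alleles were made are not given in the labels. The series is about lesser atherosclerosis without MyD88, the adaptor of Toll-like and interleukin-1 receptors, and the comparison asks how the receptors that bind antibody in the vessel differ with it.

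Fc receptors bind the constant part of antibodies and let phagocytes take up immune complexes, among them complexes with oxidised lipoprotein. The activating receptors Fcgr1 and Fcgr3 have no signalling motif of their own and depend on Fcer1g, a small chain with an immunoreceptor tyrosine-based activation motif (ITAM). Src family kinases such as Lyn and Fgr phosphorylate the ITAM, Syk binds it, and Plcg2 acts downstream of Syk. Fcgr2b carries an inhibitory motif instead and restrains the activating receptors. Tyrobp, also called DAP12, is the second ITAM adaptor of myeloid cells and serves receptors such as Trem2. In a vessel wall these genes are expressed chiefly by macrophages and other leukocytes.

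The promoters of the activating receptors and of their shared chain are shown because these genes are needed together for antibody uptake and their ratios are compared with each other in the data that follow. The windows hold 250 bases before and 50 after the annotated start (RefSeq, GRCm38.p6). Capitals mark GAGGAA, the letters of a PU box bound by the myeloid factor PU.1, on either strand (TTCCTC on the printed strand is its complement), and TTCNNNGAA, the letters of a STAT element, which is its own complement.
Fcgr1, chr3:96293920-96294219, minus strand: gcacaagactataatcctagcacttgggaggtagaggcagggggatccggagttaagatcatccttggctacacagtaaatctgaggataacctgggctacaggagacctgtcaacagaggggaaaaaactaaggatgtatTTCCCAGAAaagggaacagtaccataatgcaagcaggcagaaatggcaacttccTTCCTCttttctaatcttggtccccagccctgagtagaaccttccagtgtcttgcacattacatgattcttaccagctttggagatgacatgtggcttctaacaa
Fcgr3, chr1:171059354-171059653, minus strand: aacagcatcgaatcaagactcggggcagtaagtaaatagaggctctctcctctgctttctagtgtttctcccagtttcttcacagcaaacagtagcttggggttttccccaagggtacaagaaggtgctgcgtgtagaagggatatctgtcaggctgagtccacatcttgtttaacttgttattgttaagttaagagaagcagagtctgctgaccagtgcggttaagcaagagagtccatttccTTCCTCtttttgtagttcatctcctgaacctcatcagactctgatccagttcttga
Fcer1g, chr1:171234300-171234599, minus strand: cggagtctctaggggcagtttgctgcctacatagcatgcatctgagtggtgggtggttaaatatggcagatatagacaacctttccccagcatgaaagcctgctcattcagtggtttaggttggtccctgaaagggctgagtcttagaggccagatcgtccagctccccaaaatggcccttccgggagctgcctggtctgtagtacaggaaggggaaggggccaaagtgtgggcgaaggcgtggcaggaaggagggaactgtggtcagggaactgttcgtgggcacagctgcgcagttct
In the Fcgr1 window TTCCCAGAA lay 109 to 101 bases before the start and the GAGGAA match 55 to 50 bases before it. In the Fcgr3 window GAGGAA lay 6 to 1 bases before the start and TTCNNNGAA was not found, and the Fcer1g window held neither. The shorter GGAA core common to ETS factors was not searched for or marked. For scale, 28.3% of 32851 promoter windows of the same length held GAGGAA, 8.30% held TTCNNNGAA and 2.38% held both. The 2 receptor windows share the run TTCCTTCCTCTTTT, 14 bases long, which begins 59 bases before the start in Fcgr1 and 10 bases before it in Fcgr3. It occurred in 5 of the 32851 windows on either strand. Of these 5 windows 3 belong to Fcgr1 and Fcgr3, the second of which has 2 annotated starts with overlapping windows. The run was picked as the longest that the receptor windows share, so their place in this count was fixed beforehand and tests nothing. The other pairings among Fcgr1, Fcgr3, Fcer1g, Fcgr2b and Fgr had longest shared runs of 7 to 9 bases, each found in 0.280% to 7.23% of windows. These matches describe the letters in the window and no binding was measured.

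All 6 measured genes had a mean log2 ratio below 0, that is, less transcript in double-null than in apoE-null aorta, but none passed the test over all genes. Their ratios lay between -0.62 for Fcgr2b and -0.18 for Fcer1g, with a median of -0.48 against -0.04 over all 4299 genes. With limma's moderated test and Benjamini-Hochberg adjustment over all genes, 0 of 6 passed at 0.05, where 0.814% of all genes passed. At an unadjusted p under 0.05, 4 of 6 were lower, against 5.44% of all genes lower and 9.47% in either direction. The members were chosen with earlier results of these data known, so such shares describe the group and do not test it. In whole tissue, fewer cells of a type and less transcript per cell cannot be told apart. A ratio below 0 is common in these data, at 58.3% of genes, and 3 of the 6 members were below 0 in every pair measured, against 7.91% of all genes. Of these members, Fcgr3 had 5 pairs, but Fcgr2b and Fgr had only 3, where this is easier to reach than with 5. A fit of the arrays themselves with the mouse pair as a random block also called 0 of 6, with 4 of 6 at an unadjusted p under 0.05. The disrupted gene, Myd88, was below 0 on all 10 arrays (log2 -0.90 ± 0.22, SD, n = 5 pairs, limma adjusted p = 0.0269). Its adjusted p lay between 0.0558 and 0.124 when any 1 pair was left out, so it passed at 0.05 only with all 5 pairs in this fit. The sign of Myd88 in pair 1 was also the ground for using the genotype labels there, so those 2 arrays are not independent support. With pair 1 left out, the limma adjusted p of Myd88 was 0.0635.

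**Figure D1:**
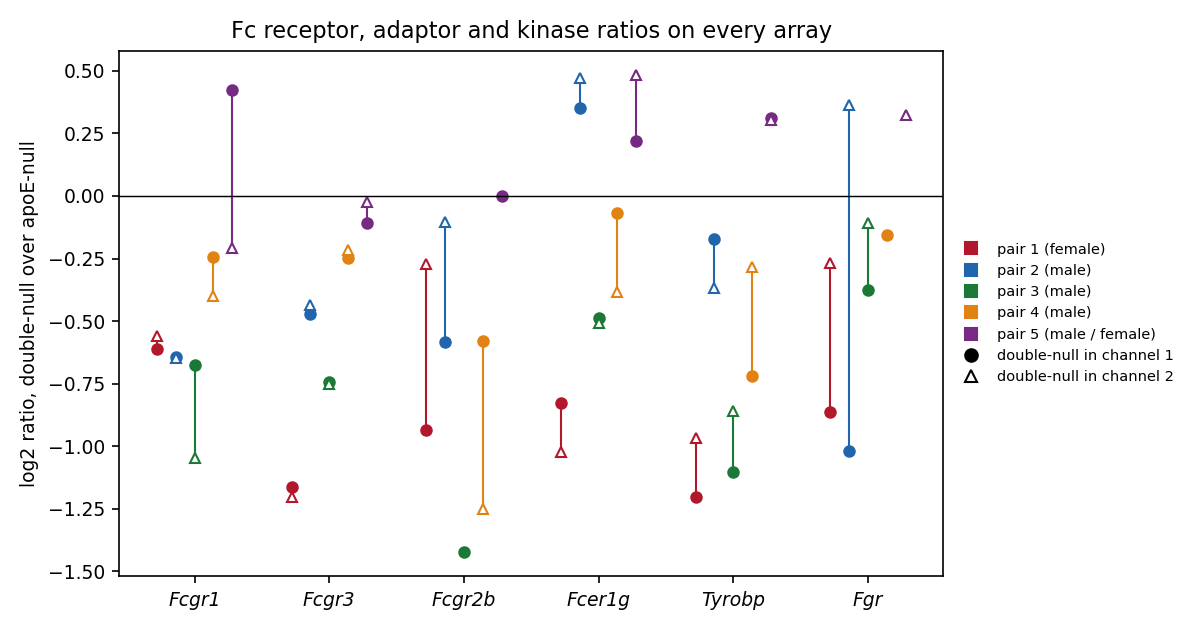
Log2 ratio of double-null over apoE-null on every array for the 6 measured genes. Filled circles are arrays with double-null RNA in channel 1, open triangles arrays with it in channel 2, colours are mouse pairs and a line joins the dye-swapped arrays of a pair. Of 56 values 47 are below 0, but they are repeats of the same 5 mouse pairs and not independent observations. By gene means, 58.3% of all genes are below 0. Fcgr3 has short lines and no value above 0, whereas the lines of Fcgr2b and Fgr are long.

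Fcgr3, the low-affinity activating receptor, was below 0 on 10 of 10 arrays. With double-null RNA in channel 1 its log2 ratios were -1.16, -0.47, -0.74, -0.25 and -0.11 in pairs 1 to 5. With double-null RNA in channel 2 they were -1.20, -0.43, -0.75, -0.22 and -0.022. The dye-swapped arrays of a pair therefore differed by at most 0.085, while the pairs ranged from strongly lower to almost level. The mean log2 ratio was -0.54 ± 0.44 (SD, n = 5 pairs), or 1.45-fold less in double-null aorta, with a 95% interval from -0.93 to -0.15 and a limma adjusted p of 0.327 (unadjusted p = 0.0130).

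Fcgr1, the high-affinity receptor for monomeric antibody, was below 0 on 9 of 10 arrays. Its log2 ratios were -0.61, -0.64, -0.68, -0.25 and 0.42 in pairs 1 to 5 with double-null RNA in channel 1. In the other orientation they were -0.56, -0.65, -1.05, -0.40 and -0.21. Pairs 1 to 4 were lower in both orientations, and the arrays of pair 5, the pair of unlike sex, had opposite signs. The mean log2 ratio was -0.46 ± 0.37 (SD, n = 5 pairs; 95% interval -0.81 to -0.11; limma adjusted p = 0.364).

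Fcgr2b, the inhibitory receptor, had values on 8 arrays and all 8 were below 0. They were -0.94, -0.58, -1.42, -0.58 and -0.00077 in pairs 1 to 5 with double-null RNA in channel 1, and -0.27, -0.10 and -1.25 in pairs 1, 2 and 4 in the other orientation. Pairs 3 and 5 had a value on 1 array only and were left out of the mean. The remaining pair values of -0.60, -0.34 and -0.92 gave a mean log2 ratio of -0.62 ± 0.29 (SD, n = 3 pairs; limma adjusted p = 0.305), or 1.54-fold less in double-null aorta. The extracellular parts of Fcgr2b and Fcgr3 are close to identical in sequence, and as the probe sequences were not used here, their signals may not be fully separate.

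Activating and inhibitory receptors did not diverge in a shared direction. In the 3 pairs with an Fcgr2b value, Fcgr3 minus Fcgr2b was -0.58, -0.11 and 0.68 on the log2 scale in pairs 1, 2 and 4 (mean -0.0019 ± 0.64, SD). Fcgr1 minus Fcgr2b was 0.020, -0.30 and 0.59 (mean 0.10 ± 0.45, SD, n = 3 pairs). Each difference had both signs among the pairs, and these 3 pairs cannot show whether the balance of the receptors differed.

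Tyrobp, the DAP12 adaptor, was below 0 in 4 of 5 pairs. Its log2 ratios with double-null RNA in channel 1 were -1.20, -0.17, -1.10, -0.72 and 0.31 in pairs 1 to 5. In the other orientation they were -0.97, -0.37, -0.86, -0.28 and 0.30. Pairs 1 and 3 were the lowest and pair 5 was above 0 on both arrays. The mean log2 ratio was -0.51 ± 0.57 (SD, n = 5 pairs; 95% interval -0.97 to -0.042; limma adjusted p = 0.498).

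Fcer1g, the chain on which Fcgr1 and Fcgr3 depend, had the ratio nearest to 0 of the 6 genes. Its log2 ratios were -0.83, 0.35, -0.49, -0.067 and 0.22 in pairs 1 to 5 with double-null RNA in channel 1, and -1.03, 0.47, -0.51, -0.39 and 0.49 in the other orientation. Pairs 1, 3 and 4 were below 0 and pairs 2 and 5 above 0, each with the same sign on both arrays. The mean log2 ratio was -0.18 ± 0.57 (SD, n = 5 pairs; 95% interval -0.64 to 0.29; limma adjusted p = 0.756). Without pair 1 the mean was 0.010, without pair 2 it was -0.32, without pair 3 -0.097 and without pair 5 -0.31.

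Fcer1g stood above both Tyrobp and Fcgr3 in every pair. Fcer1g minus Tyrobp was 0.16, 0.68, 0.48, 0.27 and 0.044 on the log2 scale in pairs 1 to 5, with a mean of 0.33 ± 0.26 (SD, n = 5 pairs). Fcgr3 minus Fcer1g was -0.26, -0.86, -0.25, -0.0066 and -0.42, with a mean of -0.36 ± 0.32 (SD, n = 5 pairs). Each gave p = 0.0625 in an exact sign-flip permutation test (two-sided), the smallest that 5 pairs allow, and an adjusted p of 0.188 over the 6 comparisons among the 4 genes with 5 pairs. Fcgr1 minus Fcer1g was below 0 in 4 of 5 pairs (mean -0.28 ± 0.51, SD; exact sign-flip permutation p = 0.313). The 3 comparisons among Fcgr1, Fcgr3 and Tyrobp had mean differences of 0.075 or less in size and signs that varied between pairs. These comparisons were chosen after the values were seen.

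Fgr, a Src family kinase of myeloid cells, had the largest difference between dye orientations of the 6 genes. With double-null RNA in channel 1 it read -0.86, -1.02, -0.38 and -0.16 in pairs 1 to 4. With double-null RNA in channel 2 it read -0.27, 0.36, -0.11 and 0.32 in pairs 1, 2, 3 and 5. All 4 values of the first orientation were below 0 and 2 of 4 in the second were above it. The 3 complete pairs gave -0.56, -0.33 and -0.24, with a mean log2 ratio of -0.38 ± 0.17 (SD, n = 3 pairs; 95% interval -0.76 to 0.0018; limma adjusted p = 0.521). With all 8 values used, the log2 ratio was -0.24 in the fit of arrays and -0.19 where 1 array sufficed for a pair, and with double-null RNA in channel 1 or 2 only it was -0.60 or 0.077. The small SD of the pair values does not carry over to the arrays, since the dye-swapped values of pair 2 were 1.38 apart. In a limma test of the difference between orientations 0 of 6 member probes passed, against 4.75% of all probes. At an unadjusted p under 0.05 only Fgr of the 6 was found (limma adjusted p = 0.124), against 21.4% of all probes.

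**Figure D2:**
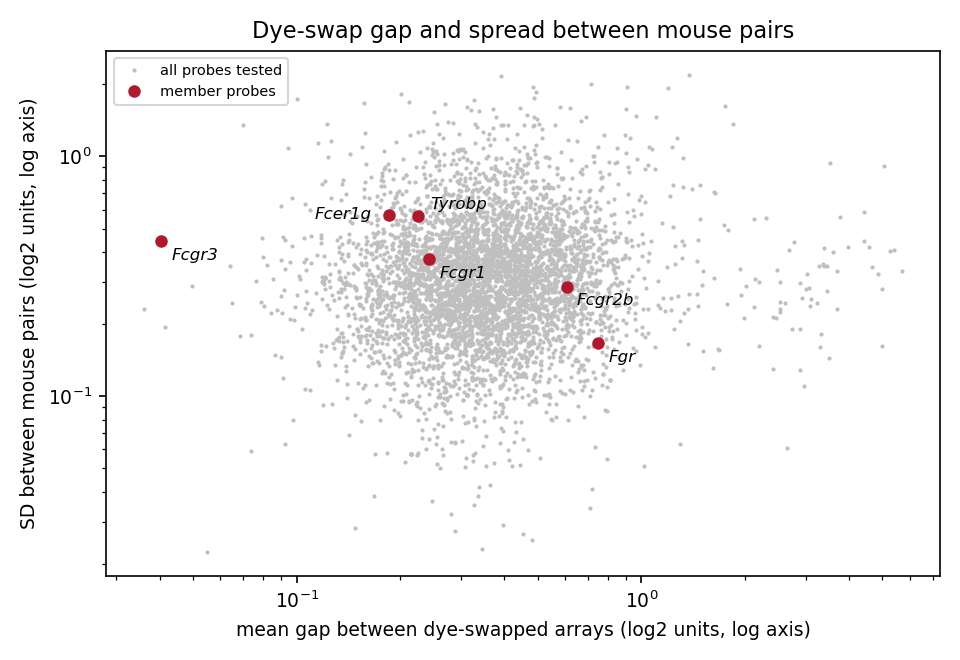
Mean gap between the dye-swapped arrays of a pair (x axis, log2 units) against the SD between mouse pairs (y axis, log2 units) for all 4866 tested probes in grey and the 6 member probes in red, on log axes. Fcgr3 lies at the far left, above the median SD of 0.30, and Fcgr2b and Fgr lie to the right of most probes.

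Agreement between dye swaps and agreement between mice were different things for these genes. The mean gap between swapped arrays was 0.040 for Fcgr3, 0.19 for Fcer1g, 0.22 for Tyrobp and 0.24 for Fcgr1, all under the median of 0.35 over all probes. Only 0.0206% of tested probes had a smaller gap than Fcgr3. The SD between pairs went the other way, at 0.44 for Fcgr3, 0.57 for Fcer1g, 0.57 for Tyrobp and 0.37 for Fcgr1, above the median of 0.30. For these 4 genes the spread therefore lay between the mice of different pairs more than between repeat measurements of the same mice. Fcgr2b and Fgr had mean gaps of 0.61 and 0.75, above the median gap, and SDs of 0.29 and 0.17, below the median SD. Their SDs rest on 3 complete pairs each, so they do not show that the mice differed less than repeat measurements. For Fcgr2b the lowest and highest channel 1 values, -1.42 and -0.00077, were in pairs 3 and 5, which its SD leaves out. For Fgr the channel 1 value was the lower in each complete pair, a difference that averaging the swapped arrays removes from the SD.

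The pairs differed in how many of these genes were below 0. All 6 measured genes were below 0 in pair 1, with log2 ratios from -1.18 to -0.56. In pair 3 all 5 measured genes were below 0 (-0.98 to -0.24), as were all 5 in pair 4 (-0.92 to -0.23) and 5 of 6 in pair 2 (-0.65 to 0.41). In pair 5 only Fcgr3 of 4 measured genes was below 0, with a range from -0.065 to 0.35. Without pair 1, whose mouse numbers go against its genotypes, the 4 genes still tested had a median log2 ratio of -0.37 and 0 were called. Pair 5 is the pair of unlike sex, so sex and genotype cannot be told apart within it. Without pair 5 the mean log2 ratio was -0.71 for Tyrobp (adjusted p = 0.140), -0.65 for Fcgr3 (adjusted p = 0.204) and -0.60 for Fcgr1 (adjusted p = 0.140), and limma again called 0 of 6. In the 3 male pairs alone the log2 ratio was -0.61 for Fcgr1, -0.58 for Tyrobp, -0.48 for Fcgr3 and -0.10 for Fcer1g, with no call among these 4 genes.

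**Figure D3:**
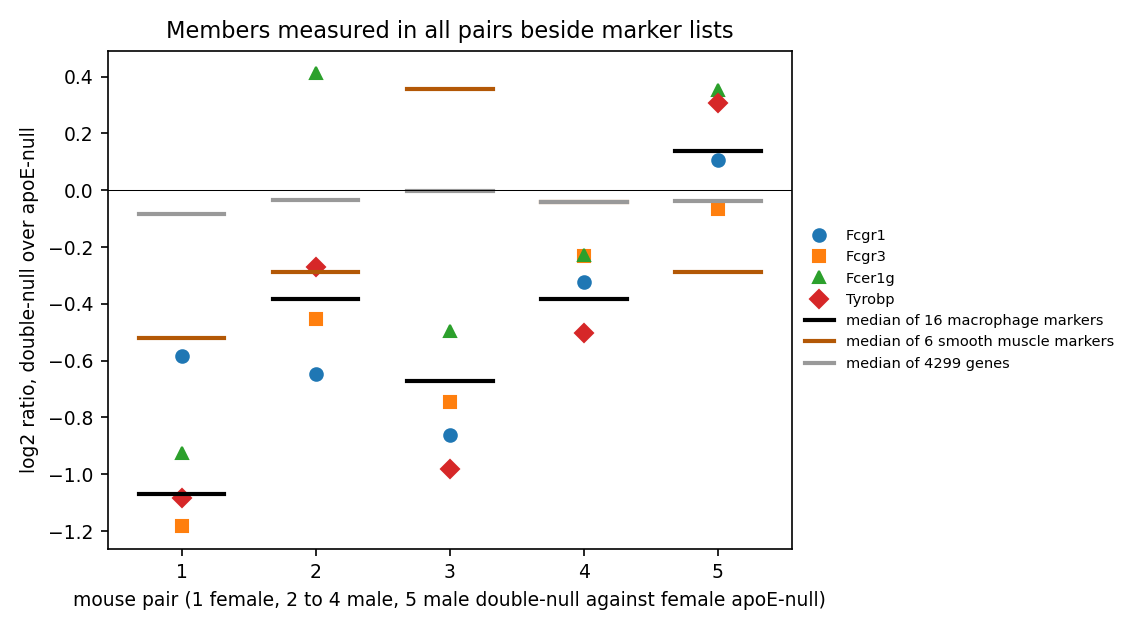
Log2 ratio of double-null over apoE-null in each mouse pair for the 4 genes measured in all pairs (symbols), beside the medians of 16 macrophage markers (black), 6 smooth muscle markers (brown) and all 4299 genes (grey). The black bar is lowest in pair 1 (-1.07) and above 0 in pair 5 (0.14), and 3 of the 4 symbols are above 0 in pair 5. Fcgr1 is lowest in pair 3, and the other 3 genes are lowest in pair 1.

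Macrophage markers and leukocyte genes in general varied with these genes from pair to pair. Of 16 tested macrophage markers 15 were below 0, against 58.3% of all genes, and 0 passed over all genes. At an unadjusted limma p under 0.05, 9 were lower, against 5.44% of all genes. Their median log2 ratio was -0.49, with a range from -0.87 to 0.10. Their pair medians were -1.07, -0.38, -0.67, -0.38 and 0.14 in pairs 1 to 5, beside member medians of -0.77, -0.34, -0.75, -0.32 and 0.21. The markers with the smallest p were Lyz2, a lysozyme (log2 -0.81), Ms4a6c, a membrane protein of monocytes (log2 -0.55), and C1qa, a complement subunit (log2 -0.87). Of 10 tested genes common to leukocytes 9 were below 0 and 0 passed, with a median of -0.26 and pair medians of -0.86, -0.35, -0.53, 0.0049 and 0.31. The 1 tested dendritic cell marker, the integrin Itgax, read -1.38, 0.041, -0.14, 0.14 and 0.60 in pairs 1 to 5. The part of these cells in the ratios of the Fc receptors was not tested. The subtraction given next compares ratios and cannot separate fewer cells from less transcript per cell. Ccr2 and Cx3cr1 had probes but no value on any array.

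Set against these markers, Fcgr1, Fcgr3 and Tyrobp lay near 0. After the macrophage median of each pair was subtracted, a step chosen after the data were seen, the mean log2 ratio was -0.062 ± 0.13 for Fcgr3, -0.032 ± 0.19 for Tyrobp and 0.012 ± 0.29 for Fcgr1 (SD, n = 5 pairs). Fcgr3 stayed within -0.20 to 0.15 of the macrophage median in each pair. Fcer1g was 0.30 ± 0.28 (SD, n = 5 pairs) and lay above the macrophage median in all 5 pairs, by 0.14, 0.80, 0.17, 0.16 and 0.21. None of these 4 ratios to the markers passed the limma test (adjusted p = 0.374 for Fcer1g and 0.843 or more for the others). The subtraction puts the spread of that median between pairs (SD 0.44) into every gene of the fit, from which limma takes part of its error. Not passing there therefore decides nothing about these 4 ratios.

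Other cells that carry Fc receptors were covered thinly. Mast cells and basophils use Fcer1g with the IgE receptor, whose own chains Fcer1a and Ms4a2 had probes but no value on any array, and their proteases Cpa3 and Cma1 averaged 0.39 ± 0.50 and 0.36 ± 0.32 on the log2 scale (SD, n = 5 pairs) without passing. B cells carry Fcgr2b, and of 3 tested B cell markers 1 was below 0, against 58.3% of all genes. Their list median was 0.28, and the marker Ms4a1 was blank throughout. Of 11 NK and T cell markers with a probe, 7 were blank on all arrays. Of 5 tested neutrophil genes 1 passed and was lower, against 0.186% of all genes, and the list median was 0.17. This gene was Lcn2, a siderophore-binding protein that other cells also make (log2 -1.25 ± 0.26, SD, n = 3 pairs, limma adjusted p = 0.0434). With pair 3 or pair 4, in which Lcn2 has no pair value, left out of the table, its adjusted p was 0.0726 or 0.124. The smooth muscle genes that define the aortic wall, Acta2, Myh11, Tagln and Cnn1, gave values on all 10 arrays, and their list had a median of -0.17 and pair medians of -0.52, -0.29, 0.36, -0.043 and -0.29. Adipocyte markers had pair medians of 2.19, -0.14, -0.45, 1.09 and -0.43. Platelets carry Fcer1g with their collagen receptor, and their 4 tested markers had a median of 0.75 and pair medians of 1.05, 0.45, -0.31, -0.29 and 2.71, with 0 passing. The chemokine Ppbp was the highest of them (log2 2.25 ± 1.99, SD, n = 3 pairs). Of 8 tested fibroblast markers 6 were below 0, against 58.3% of all genes, and 0 passed, against 0.814% of all genes. The list median was below 0 in 5 of 5 pairs (-0.20 over all), but so was the median of all genes (-0.04 over all). The proteoglycan Lum was the lowest of the fibroblast markers (log2 -0.69 ± 0.44, SD, n = 5 pairs, limma adjusted p = 0.172). Of 6 tested endothelial markers 0 passed, with a median of -0.082. The part of these cells in the Fc receptor ratios was not tested, and the values are ratios that carry no level in either genotype.

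Among other immunoglobulin Fc receptors 4 of 14 listed genes could be tested. Of these 2 were below 0, against 58.3% of all genes, and 0 passed, against 0.814% of all genes. Fcrls, an Fc receptor-like scavenger protein of macrophages, was below 0 in all 4 pairs measured, at -1.04, -0.59, -0.54 and -0.63 in pairs 1, 3, 4 and 5 (log2 -0.70 ± 0.23, SD, n = 4 pairs, limma adjusted p = 0.0991). It was the only gene of the pathway lists under 0.1, where 1.44% of all genes lay. The 1 array with a value for Fcrls in pair 2 read 0.014. Where 1 array sufficed for a pair, its log2 ratio was -0.56 (limma adjusted p = 0.265). With any 1 pair left out of the table, its limma adjusted p lay between 0.163 and 0.285. Fcer2a, the low-affinity IgE receptor of B cells, averaged 0.32 ± 0.35 on the log2 scale (SD, n = 5 pairs), with a dye effect (means of 0.94 and -0.31 with double-null RNA in channels 1 and 2) and a mean of 0.16 without pair 5. Pigr, which carries polymeric antibody across epithelia, had 0.056 ± 0.16 (0.015 to 0.10 when leaving out a pair), and Fcgrt, the neonatal receptor that recycles antibody in endothelium, had -0.040 ± 0.32 (SD, n = 5 pairs). Fcgr4, which lies between Fcgr2b and Fcgr3 on chromosome 1, had no annotated probe.

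Receptors that use an ITAM adaptor or Syk were below 0 in 8 of 9 tested genes, against 58.3% of all genes. Their median log2 ratio was -0.31 and 0 passed, against 0.814% of all genes. Clec4n, the lectin Dectin-2 that signals through Fcer1g, was below 0 in all 4 pairs measured (log2 -0.89 ± 0.54, SD, n = 4 pairs, limma adjusted p = 0.175). Trem2, a lipid receptor that signals through Tyrobp, had log2 ratios of -1.74, -0.42, -0.92, -0.14 and 0.29 in pairs 1 to 5 (mean -0.59 ± 0.78, SD). Selplg, the selectin ligand whose signal uses both adaptors, had -0.45 ± 0.52 (SD, n = 5 pairs). Without pair 1 the mean was -0.30 for Trem2 and -0.22 for Selplg. Cd79b, an ITAM chain of the B cell receptor, was the exception at 0.28 ± 0.21 (SD, n = 4 pairs).

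Downstream of the ITAM 13 of 15 tested genes were below 0, against 58.3% of all genes. Their median log2 ratio was -0.25 and 0 passed, against 0.814% of all genes. Prkcd, a protein kinase C activated by diacylglycerol, was below 0 in 5 of 5 pairs (log2 -0.39 ± 0.21, SD, n = 5 pairs, limma adjusted p = 0.305). Ptprc, the CD45 phosphatase that activates Src kinases, had -0.97 ± 1.04 (SD, n = 4 pairs), and Pik3ap1, an adaptor of phosphoinositide 3-kinase, -0.58 ± 0.66 (SD, n = 5 pairs). Btk, the kinase that acts on Plcg2, was above 0 in every pair, averaging 0.52 ± 0.19 on the log2 scale (SD, n = 5 pairs, limma adjusted p = 0.120). Its arrays, however, read -0.93 on average with double-null RNA in channel 1 and 1.97 with it in channel 2 (dye effect at adjusted p = 2.27e-07 by limma), so the pair values average larger opposed values.

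Inhibitory receptors and negative regulators were below 0 in 8 of 9 tested genes, against 58.3% of all genes. Their median log2 ratio was -0.39 and 0 passed, against 0.814% of all genes. Cd72, an inhibitory coreceptor of B cells also found on macrophages, had -1.04 ± 0.84 (SD, n = 4 pairs, limma adjusted p = 0.288) and was above 0 in pair 5, at 0.12. Clec4a2, an inhibitory lectin of myeloid cells, had -0.56 ± 0.57, Sirpa, the receptor for the CD47 signal against uptake, -0.59 ± 0.80, and Cd22, a sialic acid receptor, -0.43 ± 0.56 (SD, n = 5 pairs each). Without pair 1 the mean was -0.38 for Sirpa and -0.25 for Cd22, and without pair 5 it was -0.89 for Sirpa. Of 5 subunits of the phagocyte oxidase 2 could be tested, and Cyba and Ncf4 averaged -0.26 ± 0.55 (SD, n = 5 pairs) and -0.19 ± 0.55 (SD, n = 4 pairs) on the log2 scale. Leaving out a pair moved Cyba between -0.40 (without pair 4) and -0.091 (without pair 1), and Ncf4 between -0.41 (without pair 5) and -0.025 (without pair 1). Activating and inhibitory parts of the pathway thus had medians on the same side of 0, and the difference between the lists was not tested. Some pathway genes also stand in the marker lists above, so pathway and marker lists are not separate observations. Ptprc is also among the leukocyte genes, Cd79b and Fcer2a among the B cell markers and Clec1b among the platelet markers, with others shared likewise.

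**Figure D4:**
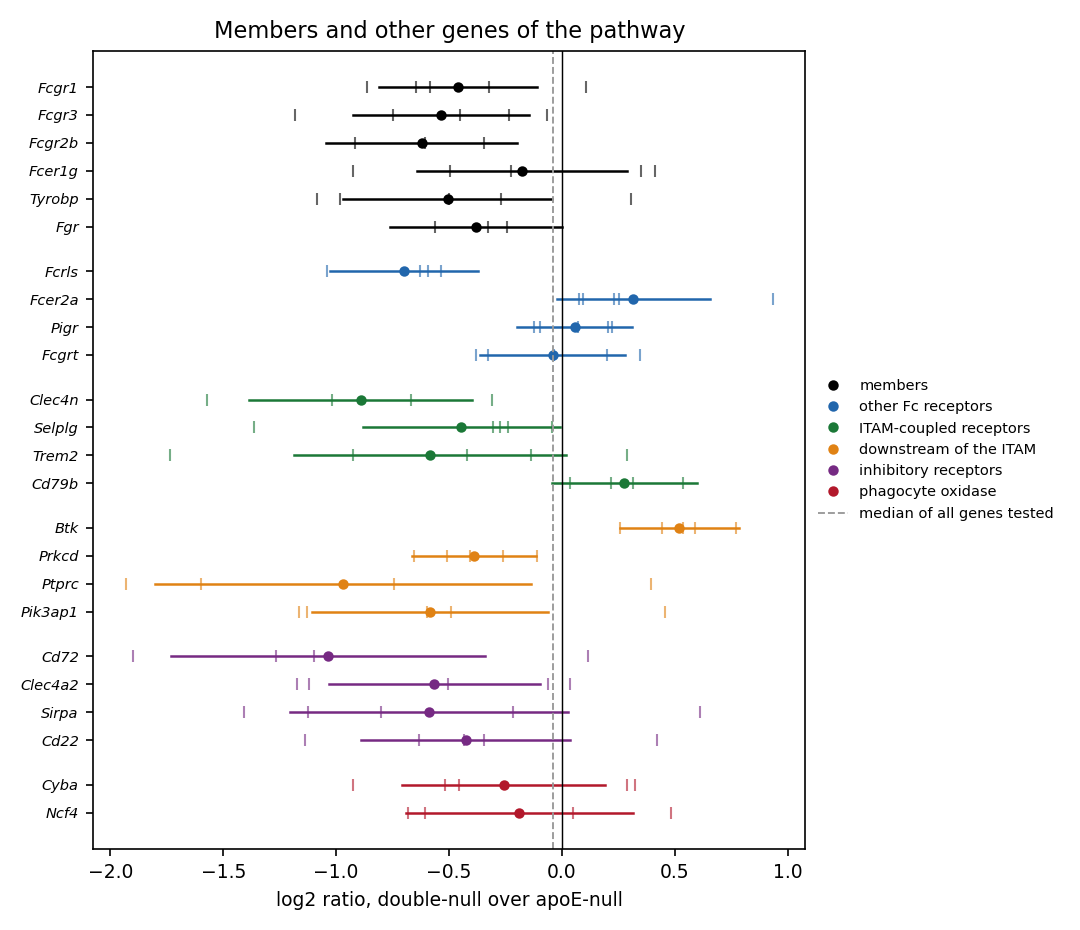
Log2 ratio of double-null over apoE-null for the 6 members and the named genes of 5 pathway lists. Dots are means, bars 95% intervals from limma, short vertical marks the mouse pairs and the dashed line the median of all genes tested (-0.04). Most dots lie left of the dashed line, with Btk, Fcer2a and Cd79b furthest to the right, and no gene passed the test over all genes.

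The genes nearest to these members were sought among 3188 genes with values in all 5 pairs, by mean absolute difference from the mean of Fcgr1, Fcgr3, Fcer1g and Tyrobp, which was -0.94, -0.24, -0.77, -0.32 and 0.18 in pairs 1 to 5. The nearest were Thumpd2 (mean difference 0.12), Apobec1, the deaminase that edits apolipoprotein B transcripts (0.13), and Man2b1, a lysosomal mannosidase (0.14). Next came Aph1c, a subunit of gamma-secretase (0.15), and Coro1a, an actin-binding protein of leukocytes (0.15). Coro1a had log2 ratios of -0.70, -0.11, -0.62, -0.30 and 0.38 in pairs 1 to 5. With 5 pairs this likeness is a description of these mice.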

How the data were processed

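Aortic arch RNA was compared directly between genotypes on 10 arrays. Per the labels, amplification used T7 polymerase and labelling was chemical, slides were scanned on a GenePix 4000B and quantified in GenePix Pro 3.0, and the data were analysed in GeneSpring. The deposited values are log2 ratios, apoE-null over double-null per the labels' titles; their normalization and the reason for blank cells (49.1% to 67.0% of an array) are not given in the sources available here. Array medians lay within 0.1 of 0, and no column was unused. Signal over background is not known here. The number of arrays limits the precision.

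Signs were turned to double-null over apoE-null and the dye-swapped arrays of a pair averaged to 1 replicate, since they hold the same RNA. In pair 1 the arrays name the same mice with genotypes exchanged, and the genotype labels were used. Pairs with a blank on either array were dropped for that probe, and probes with fewer than 3 pairs were not tested, which left 4866. Symbols were updated by Entrez identifier (12009 of 12143 single symbols), and probes of a gene averaged (4299 genes). Each was tested against 0 with limma 3.58.1 (lmFit, eBayes, two-sided, Benjamini-Hochberg, threshold 0.05) in R 4.3.3; the error term is the variation among the 5 pairs, whose mice the labels number separately. Adjusted p-values of genes are over all 4299 genes, and those of dye effects over all probes. Differences between members used an exact sign-flip permutation test (scipy 1.17.1). In simulated data the fit recovered 35% of log2 decreases of 0.5 and 93.2% of decreases of 1, with 5.87% false among calls. A decrease of the size of the member median could thus often be missed. The rates are for 4866 simulated rows as a whole and were not worked out for the members. Over all tested probes the median SD between pairs was 0.30. The members with 5 pairs had SDs of 0.37 to 0.57, and Fcgr2b and Fgr had only 3 pairs, so these rates need not hold for them.

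The members and lists were chosen with earlier results of these data known. Named genes were the members, Myd88, up to 4 genes of each pathway list and up to 3 of each leukocyte marker list with the smallest p, and the 5 genes nearest to the member mean; Fcer1a, Ms4a2, Ms4a1, Ccr2, Cx3cr1, Fcgr4, Lum, Ppbp and the smooth muscle genes were named after their values were seen. Alternatives were leaving out each pair, arrays as units, single orientations, robust eBayes, centring, scaling, filters, removed floor values, the male pairs, probes with a dye effect left out and a looser threshold. Subtracting the macrophage median was added after the data were seen.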

Additional observations from a re-analysis of the deposited data

How the results depend on the processing

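No member gene or probe passed under any alternative run, and the member median log2 ratio stayed below 0 (-0.61 to -0.37 when leaving out a pair) except after the macrophage median was subtracted, where it was 0.0015, with Fcgr1 at 0.012, Fcer1g at 0.30 and Fgr at 0.33. Leaving out a pair moved Fcer1g between -0.32 (without pair 2) and 0.010 (without pair 1), and Fgr was above 0 on channel 2 arrays alone (0.077). Among the named pathway genes, Btk (-0.93) and Pigr (-0.021) turned sign on channel 1 arrays and Fcer2a (-0.31) and Fcgrt (0.11) on channel 2 arrays, and Fcgrt ranged from -0.14 to 0.045 when leaving out a pair. The cause of these changes was not tested beyond what each setting removes. Probes called in the whole table numbered 38, and 0 to 25 when leaving out a pair: 11, 2, 5, 0 and 25 without pairs 1 to 5. There were 59 with double-null RNA in channel 1 only, 119 with it in channel 2 only, 4 with dye-affected probes left out and 74 at a threshold of 0.1. Of the pathway genes, 0 were called, against 2 on channel 1 arrays (Btk lower, Vav2 higher), 1 on channel 2 arrays (Btk, higher), 1 in the male pairs (Clec1b, lower) and 1 at 0.1 (Fcrls). Vav2 had values on only 5 of the 10 arrays and was not tested in the main test, so a dye effect in its call could not be averaged out. No dye effect was called in a member probe in any fit that left out a pair. The main test is itself paired, on ratios within mouse pairs, and the fit of arrays with the pair as a replicate block called 35 probes. Leaving out a pair also drops Fcgr2b or Fgr from the test where fewer than 3 pairs remain. Blank cells limit Fcgr2b and Fgr to 3 pairs.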
